A study of Sus scrofa with 8 samples.

Results

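The genes described here are 10 brakes and transcription factors that the ERK pathway is known to induce: the phosphatase genes DUSP4, DUSP5 and DUSP6, the Sprouty genes SPRY1, SPRY2 and SPRY4, the Sprouty-related genes SPRED1 and SPRED2, and the ETS factor genes ETV4 and ETV5. They were taken by symbol from the deposited table of 25285 pig genes, in which each of the 10 symbols had 1 row. The list was chosen by pathway with the measured FPKM of both states in these libraries already in view. The cells were primary cells from the skeletal muscle of pigs of the strain given as LYD, grown in culture and sequenced undifferentiated or differentiated. With 2 female and 2 male libraries in each state, 4 libraries stood for a state and 8 were analysed in all. The sources used here give no age, culture medium, duration of differentiation or number of animals, and do not say whether replicates are different animals. The spread reported below is therefore that between these libraries, and may be technical.

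Growth factors such as fibroblast growth factors bind receptor tyrosine kinases, which switch on RAS and then the kinases RAF, MEK and ERK. ERK induces its own brakes: DUSP phosphatases remove phosphate from ERK, while Sprouty and SPRED proteins act upstream at the level of RAS and RAF. ETV4 and ETV5 are ETS transcription factors that respond to the same signal, and the pathway is known in muscle for keeping myoblasts dividing and delaying their differentiation.

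Values are the deposited FPKM, a fragment count corrected for transcript length and for library size. The number of reads is unknown. From the values of weakly expressed genes, the relative depth was estimated at 1.66 to 2.35 in undifferentiated libraries and 1 to 1.61 in differentiated ones, with differentiated female replicate 1 set to 1. The markers followed the labels: MYOG, which starts terminal differentiation, was at 72.4 ± 39.5 FPKM (SD, n = 4) before and 1152 ± 307 after (limma adjusted p = 0.000106), and MKI67, a proliferation marker, at 33.0 ± 8.37 and 4.48 ± 2.77 FPKM (limma adjusted p = 0.000598). The myoblast regulator MYOD1 stood at 184 ± 28.02 and 94.8 ± 10.4 FPKM, and the satellite cell genes PAX7 and MYF5 were not analysed here. Differentiated male replicate 1 stood apart from the other differentiated libraries. Its 5 matched proliferation markers summed to 64.3 FPKM against 15.5 to 21.9 in the other 3, its 4 fibroblast markers to 815 against 167 to 509, and its 4 myotube markers to 8457 against 10597 to 12183. Fibroblast marker RNA also differed between the states, with sums of 23.7 to 184 FPKM in undifferentiated and 167 to 815 in differentiated libraries, and COL1A1, a collagen that made up most of it, rose (73.5 ± 71.7 and 406 ± 295 FPKM, log2 2.59, limma adjusted p = 0.00232). DCN, LUM and PDGFRA did not pass. The immune marker CD14 fell (13.4 ± 1.51 and 2.06 ± 0.330 FPKM, limma adjusted p = 9.12e-05), while PTPRC, found on all white blood cells, was at most 0.199 FPKM. The immune marker CD3E went the other way, from 0 to 0.129 FPKM in undifferentiated libraries to 0.469 to 2.41 in differentiated ones. CD68 overlapped between the states, at 0.396 to 1.78 and 0.189 to 1.23 FPKM. Both were too low on average to be tested. The part of such cells in the results below was not tested. The 4 endothelial markers summed to at most 7.53 FPKM in any library, the 5 immune markers to at most 17.1, the 4 Schwann cell markers to at most 7.21 and the 1 adipocyte marker to at most 0.193. The immune marker CSF1R and the adipocyte marker PLIN1 were listed at 0 in every undifferentiated library.

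The list was proposed with the comparison of the states already known, so the values by state are given as a description without a test. In differentiated cells 4 of the 10 genes stood below 10% of their undifferentiated mean: DUSP5 at 4.61%, DUSP6 at 7.05%, SPRY4 at 9.24% and ETV4 at 9.70%. The other 6 stood between 41.0% (ETV5) and 99.5% (SPRY1). All 4 differentiated libraries lay below all 4 undifferentiated ones for 8 of the 10 genes, and above them for 0. Of the 12963 genes tested, those averaging 1 FPKM or more, 30.2% had their differentiated libraries below in this way and 17.1% above. SPRY1 and SPRY2 were the 2 genes whose states overlapped. In bulk libraries, fewer cells expressing a gene and less RNA per cell cannot be told apart.

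**Figure D1:**
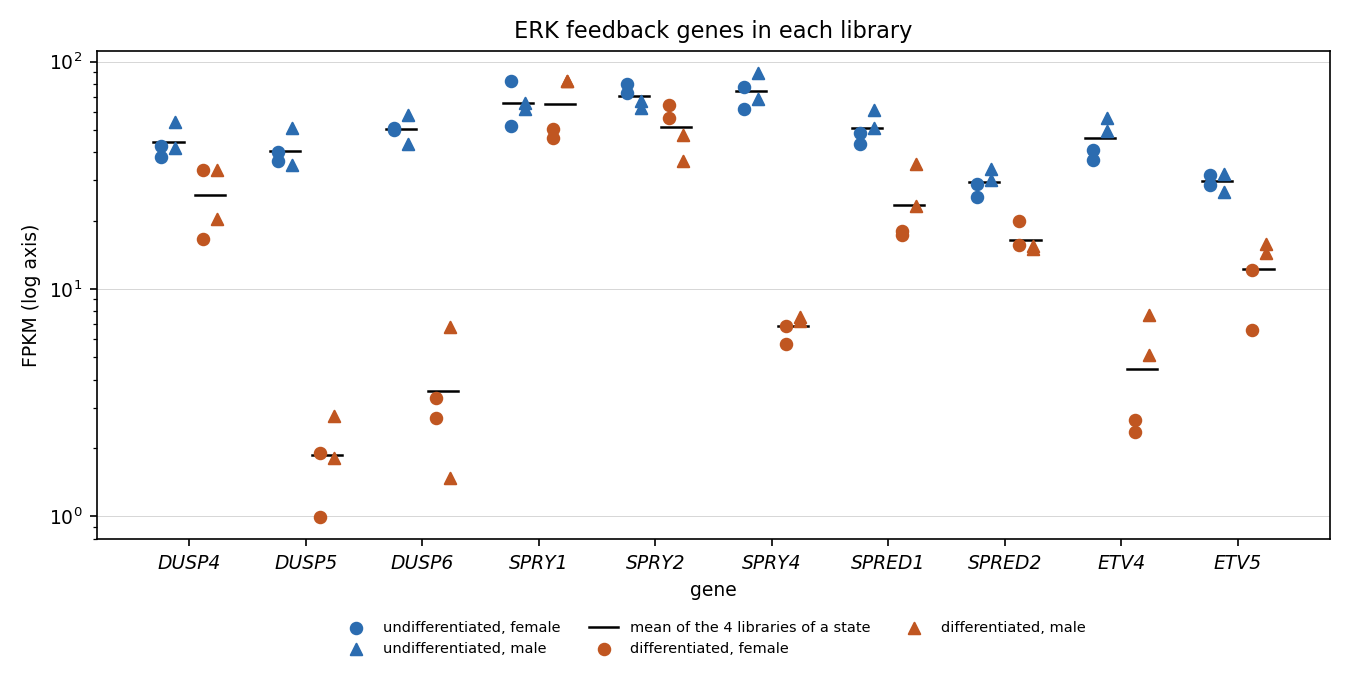
FPKM of the 10 genes in each library on a log axis, with undifferentiated libraries in blue, differentiated ones in orange, females as circles, males as triangles and the mean of each state as a bar. DUSP5, DUSP6, SPRY4 and ETV4 lay at 35.1 FPKM or more in every undifferentiated library and at 7.68 FPKM or less in every differentiated one, while the states of SPRY1 and SPRY2 overlapped.

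The log2 differences were taken between group means of log2(FPKM + 1), which understates the change of genes at low levels. Their median over the 10 genes was -1.21, and over all tested genes it was -0.18. Scaling the libraries by median ratios raised the median of all genes by 0.185, to 0.00, so that a gene at the median of the table stands about that much below 0 in the values as deposited. Relative to the median of all genes, the 4 genes with the largest differences stood at -3.70 (DUSP5), -3.44 (DUSP6), -3.07 (SPRY4) and -3.02 (ETV4). SPRY1 stood at 0.14, the only member above that median. Ordered from the largest decrease, these 4 genes held places 92, 99, 125 and 131 of the 12963 genes. ETV5, the member next to this group, held place 1253, and SPRY1 place 7500. No threshold was used to choose the members.

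DUSP5 and DUSP6 are phosphatases that act on ERK, DUSP5 in the nucleus and DUSP6 in the cytoplasm, and DUSP4 is a nuclear phosphatase that also acts on other MAP kinases. DUSP5 (ENSSSCG00000010624, Sscrofa10.2 chromosome 14, 131791153 to 131804261) was at 39.9 and 36.4 FPKM in undifferentiated females and at 35.1 and 51.0 in males. In differentiated cells it was at 1.91 and 0.995 FPKM in females and at 1.80 and 2.78 in males. Its lowest undifferentiated library stood 12.7 times above its highest differentiated one, the widest gap of the 10 genes. The means were 40.6 ± 7.21 and 1.87 ± 0.729 FPKM (SD, n = 4), a ratio of 21.7.

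DUSP6 (ENSSSCG00000022284, scaffold GL894700.2, 52268 to 55482) was at 50.9 and 49.9 FPKM in undifferentiated females and at 43.4 and 58.4 in males. In differentiated cells it was at 3.32 and 2.70 FPKM in females and at 6.79 and 1.47 in males. The states did not overlap, and within the differentiated state the 2 males held both the highest and the lowest value. The highest, 6.79 FPKM, came from male replicate 1, the differentiated library with the most proliferation and fibroblast marker RNA. Whether those cells contribute to it was not tested. The ratio of the means was 14.2 with that library and 20.3 without it, and the log2 difference went from -3.62 ± 0.357 (SE) to -4.03 ± 0.146.

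DUSP4 (ENSSSCG00000015850, chromosome 15, 62906029 to 62923416) differed far less between the states. It was at 42.7 and 38.2 FPKM in undifferentiated females and at 41.5 and 54.0 in males, against 33.4 and 16.5 in differentiated females and 20.4 and 33.3 in differentiated males. The lowest undifferentiated library stood 1.14 times above the highest differentiated one, and under median-ratio scaling the states of DUSP4 overlapped, which left 7 of the 10 genes without overlap. The differentiated libraries fell into a pair near 33 FPKM and a pair near 16 to 20 FPKM, each with 1 female and 1 male.

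The 3 phosphatase genes stood at similar levels before differentiation and at unequal ones after it. In undifferentiated cells DUSP4 made up 30.7 to 34.6% of their summed FPKM, DUSP5 29.2 to 31.2% and DUSP6 35.7 to 40.1%. In differentiated cells DUSP4 made up 70.4 to 88.7%, DUSP5 4.92 to 7.40% and DUSP6 3.92 to 23.4%. These shares are ratios within a library and do not depend on how the libraries are scaled. The sum went from 135 FPKM on average to 31.3.

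**Figure D2:**
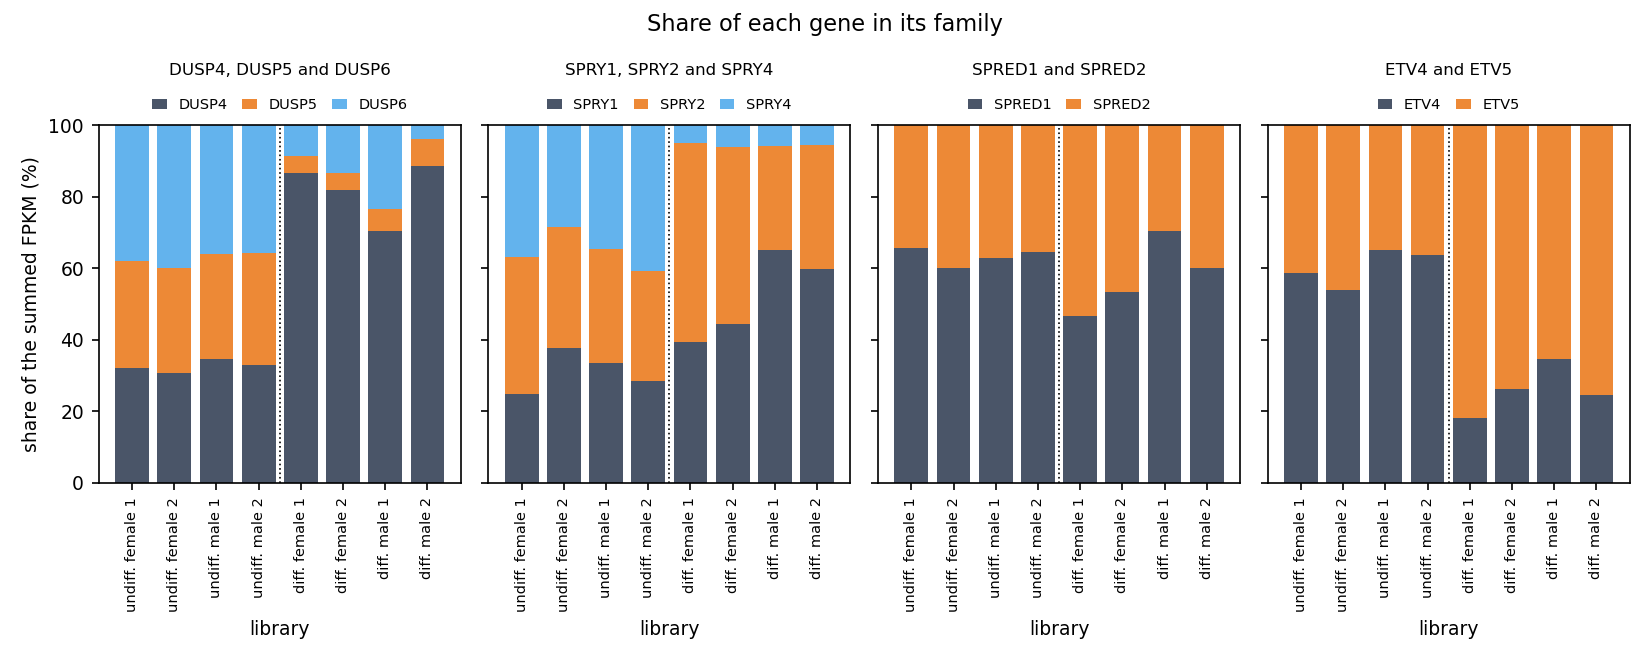
Share of each gene in the summed FPKM of its family, in percent, for each of the 8 libraries, with the undifferentiated libraries to the left of the dotted line. DUSP4 went from 34.6% of its family or less to 70.4% or more, SPRY4 from 28.6% or more to 6.05% or less, and ETV4 from above to below ETV5, while SPRED1 and SPRED2 kept overlapping shares.

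Sprouty proteins are inhibitors of receptor tyrosine kinase signalling, and SPRY1 is known in muscle for its part in the return of satellite cells to quiescence. SPRY4 (ENSSSCG00000014397, chromosome 2, 150066068 to 150066967) was at 77.6 and 62.0 FPKM in undifferentiated females and at 68.4 and 89.1 in males. Differentiated females were at 5.72 and 6.89 FPKM and males at 7.26 and 7.56. The 4 differentiated libraries lay close together, with a coefficient of variation of 11.7%, and 8.19-fold below the lowest undifferentiated one. The means were 74.3 ± 11.8 and 6.86 ± 0.805 FPKM (n = 4), a ratio of 10.8.

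SPRY2 (ENSSSCG00000009482, chromosome 11, 56943821 to 56944768) was at 79.8 and 73.0 FPKM in undifferentiated females and at 62.5 and 67.3 in males. In differentiated cells it was at 64.7 and 56.6 FPKM in females and at 36.7 and 47.6 in males. Females stood above males in both states, and the states overlapped only because differentiated female replicate 1 (64.7 FPKM) lay above undifferentiated male replicate 1 (62.5 FPKM). Within each sex the differentiated libraries lay below the undifferentiated ones. The log2 difference was -0.48 ± 0.112 (SE) and came to -0.27 under median-ratio scaling.

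SPRY1 (ENSSSCG00000009083, chromosome 8, 108000816 to 108196659) had nearly the same mean in both states, 65.4 ± 12.3 and 65.1 ± 19.6 FPKM (n = 4). Behind these means, the values were lower after differentiation in the female libraries and higher in the male libraries. In females it was at 52.2 and 81.8 FPKM undifferentiated and at 45.9 and 50.4 differentiated. In males it was at 66.0 and 61.8 FPKM undifferentiated and at 81.9 and 82.1 differentiated. The log2 difference of the states was -0.43 ± 0.211 (SE) in females and 0.36 ± 0.211 in males. The difference between these effects, -0.79, did not pass the test (limma adjusted p = 0.808, unadjusted p = 0.0375). The sign of the difference averaged over the sexes, -0.04, was not stable, since it came to 0.17 under median-ratio scaling, 0.07 under quantile normalization and 0.12 without undifferentiated female replicate 2. The deposited model of SPRY1 spans 195844 bp and overlaps 2 models on the other strand, so reads from them cannot be told apart unless the counting used strand, which is not given in the sources used here.

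The 3 Sprouty genes each made up 24.9 to 40.8% of their summed FPKM in undifferentiated cells. In differentiated cells SPRY4 made up 4.92 to 6.05%, SPRY1 39.5 to 65.1% and SPRY2 29.1 to 55.6%. SPRY2 exceeded SPRY1 in both differentiated females, and SPRY1 exceeded SPRY2 in both differentiated males. The sum of the 3 genes went from 196.9 to 218 FPKM in undifferentiated libraries to 114 to 137 in differentiated ones, a smaller difference than that of the phosphatases. The models of SPRY2 and SPRY4 span 948 and 900 bp against 195844 bp for SPRY1, so the lengths behind these FPKM values differ in kind, which bears on levels between genes but not on one gene across libraries.

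SPRED1 and SPRED2 bind the RAS inhibitor neurofibromin and bring it to the membrane. SPRED1 (ENSSSCG00000004793, chromosome 1, 148442730 to 148497704) was at 48.5 and 43.5 FPKM in undifferentiated females and at 51.3 and 61.0 in males. After differentiation the females were at 17.3 and 17.9 FPKM and the males at 35.4 and 23.2. The states did not overlap, and the highest differentiated value was again that of male replicate 1. The log2 difference was -1.14 ± 0.150 (SE) with that library and -1.29 ± 0.104 without it.

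SPRED2 (ENSSSCG00000008357, chromosome 3, 80411733 to 80444992) was at 25.5 and 28.8 FPKM in undifferentiated females and at 30.3 and 33.6 in males. In differentiated cells it was at 19.8 and 15.7 FPKM in females and at 15.0 and 15.5 in males. The means, 29.6 ± 3.36 and 16.5 ± 2.24 FPKM (n = 4), differed 1.79-fold without overlap. SPRED1 made up 60.2 to 65.6% of the sum of both genes in undifferentiated cells and 46.6 to 70.2% in differentiated ones, so that their balance overlapped between the states.

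ETV4 and ETV5 belong to the same subfamily of ETS factors. ETV4 (ENSSSCG00000017379, chromosome 12, 19893847 to 19910598) was at 40.8 and 37.0 FPKM in undifferentiated females and at 49.5 and 56.2 in males. After differentiation the females were at 2.66 and 2.35 FPKM and the males at 7.68 and 5.12. In both states the 2 females lay below the 2 males. The means were 45.9 ± 8.66 and 4.45 ± 2.48 FPKM (n = 4), a ratio of 10.3, which was 13.6 without differentiated male replicate 1.

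ETV5 (ENSSSCG00000023229, scaffold GL893748.2, 49328 to 73288) was at 28.7 and 31.8 FPKM in undifferentiated females and at 26.6 and 32.1 in males. Differentiated females were at 12.12 and 6.61 FPKM and males at 14.5 and 15.7. The ratio of the means was 2.44, and the lowest undifferentiated library stood 1.69 times above the highest differentiated one. The order of the 2 factors turned over: ETV4 made up 53.8 to 65.1% of their sum in undifferentiated cells and 18.01 to 34.7% in differentiated ones.

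The levels of the 10 genes were close together before differentiation and spread out after it. In undifferentiated cells the means ran from 74.3 FPKM (SPRY4) over SPRY2, SPRY1, SPRED1, DUSP6, ETV4, DUSP4 and DUSP5 to 29.8 (ETV5) and 29.6 FPKM (SPRED2). Each neighbour in this order overlapped the next, except that all 4 values of DUSP5 lay above those of ETV5. In differentiated cells SPRY1 (65.1 FPKM) and SPRY2 (51.4 FPKM) overlapped each other and lay above all others. DUSP4, SPRED1, SPRED2, ETV5, SPRY4, ETV4, DUSP6 and DUSP5 followed, each overlapping the next. DUSP5 went from a level above 81.2% of the tested genes to one above 10.198%, and SPRY4 from 89.7% to 38.0%. The coefficient of variation was larger in differentiated than in undifferentiated libraries for 9 of the 10 genes, with SPRY4 as the exception, and for 60.6% of all tested genes.

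The comparison of the sexes was not used to choose these genes and could be tested. Averaged over the states, 0 of the 10 genes differed between females and males after adjustment (limma), where 0.0849% of all tested genes were called. At an unadjusted p under 0.05 there were 3 of the 10 and 9.73% of all genes. ETV4 had the lowest p, with a female minus male log2 difference of -0.75 ± 0.137 (SE, limma adjusted p = 0.292, unadjusted p = 0.00153), lower in females in both states. SPRY2 was higher in females (0.38 ± 0.112, limma adjusted p = 0.446) and SPRED1 lower (-0.48 ± 0.150, limma adjusted p = 0.462). Within undifferentiated cells 0 of the 10 were called by limma, where 0.0926% of all genes were, and 0 had an unadjusted p under 0.05. Within differentiated cells 0 were called, where 0.0463% of all genes were, and 5 had an unadjusted p under 0.05, as did 12.4% of all genes. Those 5 were SPRY1, SPRY2, SPRED1, ETV4 and ETV5, of which SPRY2 was higher in females and the others in males.

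**Figure D3:**
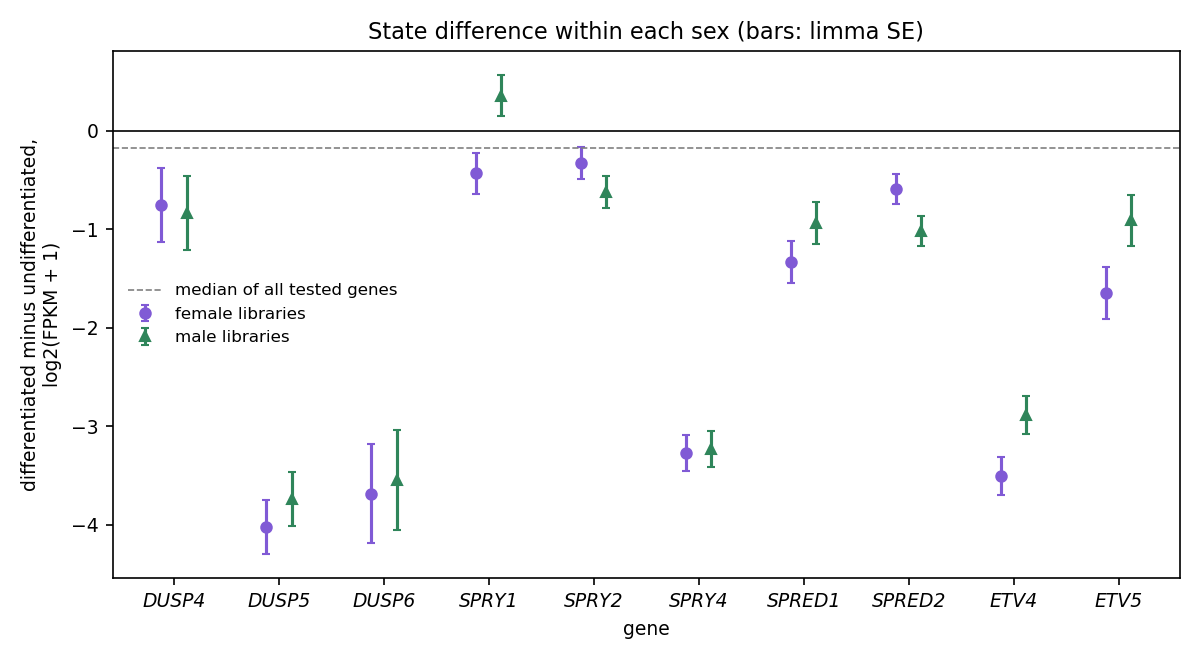
Difference of log2(FPKM + 1) between differentiated and undifferentiated cells for each gene, in female (circles) and male (triangles) libraries, with limma standard errors as bars and the median of all tested genes as a dashed line at -0.18. The 2 sexes lay close for DUSP4, DUSP5, DUSP6 and SPRY4, and on either side of 0 for SPRY1.

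The state difference did not pass a test of a difference between the sexes for any of the 10 genes (limma, lowest adjusted p = 0.808), where 0.0231% of all tested genes were called. SPRY1 was the 1 gene with an unadjusted p under 0.05, against 6.03% of all genes. The point estimates nevertheless differed for ETV5, with -1.64 ± 0.263 (SE) in females and -0.91 ± 0.263 in males, and for ETV4, with -3.51 ± 0.194 and -2.88 ± 0.194. For SPRY4 they were -3.27 ± 0.186 and -3.23 ± 0.186. Differentiated male replicate 1 was the highest of the 4 differentiated libraries for DUSP6, SPRED1 and ETV4, which is 3 of the 10 genes, where 29.7% of all tested genes had their highest differentiated value in it.

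The genes with the most similar profile were looked up for the member with the highest mean in each family, by the root mean square difference of centred log2(FPKM + 1) over the 8 libraries, among 12963 genes. For ETV4, whose own values varied by 1.65 around their mean on that measure, FAM171A1 (0.268), COTL1 (0.3004) and TOP2A (0.302) were nearest. FAM171A1 went from 93.5 to 12.15 FPKM, COTL1, an actin-binding protein, from 1108 to 158, and TOP2A, a topoisomerase of dividing cells, from 69.1 to 9.13. For DUSP4 (0.515) GAREM (0.146) and FAM20A (0.149) were among the 3 nearest, and for SPRY1 (0.315) they were PCNXL4 (0.121), KCNJ13 (0.122) and INIP (0.150). All these distances are over the same 8 libraries and were not tested.

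Other genes of the pathway were taken from 8 lists of 114 genes, of which 102 were matched and 89 passed the filter of 1 FPKM. Of these 89, 41 fell and 14 rose in differentiated cells (limma, Benjamini-Hochberg adjusted p under 0.05), that is 46.1% and 15.7%. Across all tested genes, 31.9% were called lower and 18% higher. Under median-ratio scaling the counts over all genes were 3008 lower and 3128 higher, against 4137 and 2339 as deposited, so small differences in either direction depend on the scaling. The median log2 difference of the 89 genes was -0.39. Means below are over n = 4 libraries per state, with their SD.

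**Figure D4:**
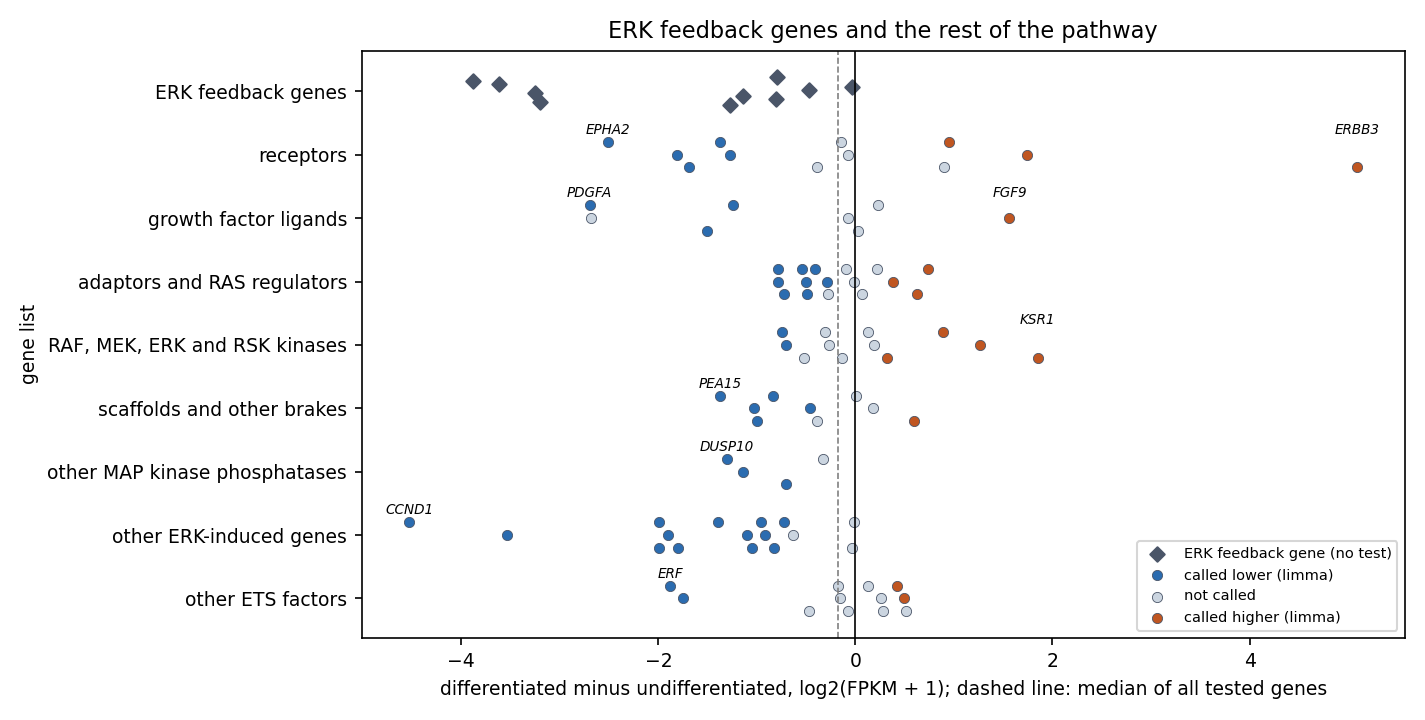
Difference of log2(FPKM + 1) between differentiated and undifferentiated cells for the 10 ERK feedback genes (diamonds, no test) and the tested members of 8 pathway lists (circles, blue where called lower, orange where called higher, grey where not called). The other ERK-induced genes lay to the left, with CCND1 at -4.53, while the RAF, MEK, ERK and RSK kinases lay on either side of 0.

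Receptors moved in both directions: of 12 tested, 5 fell, 3 rose and 4 did not pass. EPHA2, an ephrin receptor, fell from 16.5 ± 3.57 to 2.07 ± 0.590 FPKM (limma adjusted p = 0.000144). FGFR4, a fibroblast growth factor receptor of myoblasts, fell from 215 ± 56.1 to 60.8 ± 16.0 FPKM (log2 -1.81), and MET, the receptor of hepatocyte growth factor, from 83.9 ± 8.63 to 25.3 ± 2.29 FPKM (log2 -1.69). ERBB3, a receptor of neuregulins, rose from 0.957 ± 0.427 to 64.8 ± 4.14 FPKM (log2 5.09 ± 0.114 SE, limma adjusted p = 4.11e-06), and its partner ERBB2 rose by a log2 of 1.74 to 46.4 ± 9.13 FPKM (limma adjusted p = 7.13e-05). PDGFRB, a receptor also found on fibroblasts and pericytes, rose with a log2 difference of 0.95 (limma adjusted p = 0.0431), with 46.7 FPKM in differentiated male replicate 1, the library with the highest fibroblast sum, and 9.58 to 18.1 in the other 3. The log2 difference was 0.62 without that library (limma adjusted p = 0.0483). That call ended without a filter on low values (limma adjusted p = 0.0631) and without any 1 of the 4 undifferentiated libraries or the 2 differentiated female libraries (0.0728 to 0.13).

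Of 8 tested growth factor ligands, 3 fell, 1 rose and 4 did not pass. PDGFA fell from 114 ± 15.4 to 16.6 ± 0.791 FPKM (log2 -2.70 ± 0.119 SE, limma adjusted p = 3.31e-05). VEGFA (log2 -1.51) and PDGFB (log2 -1.24) fell as well. FGF9 rose from 2.21 ± 0.427 to 8.55 ± 1.71 FPKM (limma adjusted p = 0.000345). FGF2, a mitogen of myoblasts, was at 26.8 and 16.9 FPKM in undifferentiated females and at 22.5 and 12.4 in males. In differentiated cells it was at 9.40 and 7.92 FPKM in replicate 1 of each sex and listed at 0 in replicate 2 of each, and the difference did not pass (log2 -2.68 ± 0.964 SE, limma adjusted p = 0.06). Replicate 1 lay above replicate 2 in both sexes and both states, and with a block by sex and replicate number FGF2 passed as lower (limma adjusted p = 0.0306). It also passed with genes under 300 bp left out (0.0397), without differentiated female replicate 1 (0.0276) and without differentiated male replicate 1 (0.0328), and did not under the other 10 alternatives (0.076 to 0.157).

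Among 16 adaptors and RAS regulators 8 fell, 3 rose and 5 did not pass, with log2 differences of less than 0.8 in size. The largest falls were those of the RAS gene NRAS (log2 -0.79), the ubiquitin ligase CBL (-0.78), which takes down activated receptors, and NF1 (-0.73), which encodes neurofibromin. The adaptor GRB2 rose from 41.3 ± 3.45 to 69.9 ± 9.36 FPKM (limma adjusted p = 0.00284). GAB1 (log2 0.62) and SOS2 (log2 0.38) also rose, but the call of GAB1 ended without 4 single libraries (undifferentiated female replicate 2, undifferentiated male replicate 1 and either differentiated female, limma adjusted p = 0.0525 to 0.0599). That of SOS2 ended with a block by sex and replicate number (limma adjusted p = 0.062) and without any 1 library except undifferentiated female replicate 2 and differentiated male replicate 1 (0.0542 to 0.082). Accordingly 1 of the 3 rises was left without undifferentiated male replicate 1 or without either differentiated female, and under median-ratio scaling 5 members fell.

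The kinases between RAS and ERK did not share a direction: of 12 tested, 4 rose, 2 fell and 6 did not pass. ARAF, a RAF kinase, rose from 45.7 ± 3.55 to 112 ± 17.3 FPKM (log2 1.27, limma adjusted p = 0.000222), the scaffold KSR1 from 0.903 ± 0.334 to 5.84 ± 1.05 FPKM (log2 1.85) and MAP2K1, which encodes a MEK, from 50.3 ± 15.4 to 92.4 ± 15.9 FPKM (log2 0.89). The ERK substrate RPS6KA1 fell from 2.73 ± 0.640 to 1.21 ± 0.200 FPKM (log2 -0.75, limma adjusted p = 0.0149). Without differentiated female replicate 2, 2 of the 4 rises were left, and MAP2K1 was no longer called (limma adjusted p = 0.0507).

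Of 9 other scaffolds and brakes 5 fell, 1 rose and 3 did not pass. PEA15, which holds ERK in the cytoplasm, fell from 321 ± 29.2 to 124 ± 13.5 FPKM (log2 -1.37, limma adjusted p = 0.000326), the RAS inhibitor RASA3 by 1.03 and IL17RD, an inhibitor of fibroblast growth factor signalling, by 1.00 on the log2 scale. RASAL2 rose by a log2 of 0.59, and under median-ratio scaling or quantile normalization 2 members rose and 4 fell. Of 4 tested MAP kinase phosphatases 3 fell and 1 did not pass, and 2 fell under median-ratio scaling. DUSP1 fell from 145 ± 29.97 to 64.6 ± 9.5 FPKM (log2 -1.14, limma adjusted p = 0.000508), DUSP10 by 1.31 and DUSP7 by 0.71 on the log2 scale. The call of DUSP7 ended under median-ratio scaling (limma adjusted p = 0.0505) and without undifferentiated female replicate 1, undifferentiated male replicate 1 or differentiated female replicate 2 (0.0614 to 0.0696).

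Of 16 other ERK-induced genes 13 fell, 0 rose and 3 did not pass, with a median log2 difference of -1.08. CCND1, cyclin D1, fell from 902 ± 133 to 38.8 ± 10.6 FPKM, and HMGA1, a chromatin protein, from 1175 ± 143 to 101 ± 22.1 FPKM (log2 -3.54 ± 0.123 SE, limma adjusted p = 1.51e-05). IER3 fell from 57.4 ± 16.2 to 13.8 ± 4.74 FPKM (limma adjusted p = 0.000739). The other 10 that fell had log2 differences from -1.99 (FOSL1) to -0.72 (PHLDA1) and included FOS, EGR1, MYC and ETV1, of the same subfamily as ETV4 and ETV5. EGR2, MCL1 and PLAUR did not pass, although PLAUR passed as lower with the block by sex and replicate number (limma adjusted p = 0.0376, against 0.0802). Of 12 other ETS factors 2 fell, the repressor ERF (log2 -1.88) and ELK3 (log2 -1.74). ELF1 (log2 0.49) and ELF2 (log2 0.43) rose, while 8 did not pass. The 5 proliferation markers all fell as well, with a median log2 difference of -2.72, and the part of cell division in the values of the ERK feedback genes was not tested.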

How the data were processed

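RNA sequencing of 8 libraries was analysed from 1 table of FPKM. Per the submitters' processing notes, the authors made the deposited FPKM with Cufflinks 2.2.1, after cutadapt 1.6 and TopHat2 2.0.12.1, on Sscrofa10.2; settings and strand handling are not given in the sources used here. The depth in reads is unknown, which limits precision at low values. Members and lists were chosen with earlier results of these data known. Symbols were matched exactly (16274 in the table, 1841 more from an Ensembl identifier table, 7170 without). With limma 3.58.1 in R 4.3.3, log2(FPKM + 1) of the 12963 genes averaging 1 FPKM or more was fitted with 1 mean per group and a variance trend (4 residual and 2.09 prior degrees of freedom). Two-sided p-values were adjusted by Benjamini-Hochberg over all tested genes, with 0.05 as threshold; "rose" and "fell" mark genes that passed. Named pathway genes were, per list, the 3 largest rises and the 3 largest falls among called genes; any other pathway gene was picked once its values were known. The fit was tested on simulated data. Alternatives were a pseudocount of 0.1, no filter, genes under 300 bp left out, median-ratio scaling, quantile normalization, a replicate block and each library left out. Deviations from the group means correlated weakly between libraries of the same sex and replicate number across 12603 genes (r = 0.113 in females and 0.126 in males). With 2 libraries per group the deviations of replicates 1 and 2 mirror each other, so each sex gives only 1 correlation. This cannot show whether the numbers pair the states, and no label says so. Only the replicate block took the numbers as pairs, and the main fit did not. Some genes of the lists and of the profile search are not reported here.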

Additional observations from a re-analysis of the deposited data

Results flagged for a closer look

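SPRED2 in differentiated female replicate 1, at 19.8 FPKM, lay far from the other 3 differentiated libraries, which were at 15.0 to 15.7 FPKM. Its gap to the nearest of them was a larger part of the range of the 4 values than Dixon's 95% critical value for 4 values. It was the 1 such value among 20 sets of 4 libraries (10 genes in 2 states), and chance alone gives about 1 in 20.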

How the results depend on the processing

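The number of ERK feedback genes with all differentiated libraries below was 7 to 9 over the 14 alternatives, against 8, and 0 lay above in each. No member was called for sex or for a difference of the state effect between the sexes under any alternative that could be fitted; the sex comparison cannot be made with the block. With the replicate block by sex and number, 3948 genes were called lower and 2206 higher, against 4137 and 2339, and among the 89 tested genes of the pathway lists 3 calls were lost and 4 gained. SOS2 was the 1 loss among the 35 named calls. Leaving out 1 library gave 3319 to 3804 lower and 1898 to 2209 higher. List counts that moved by over 1.5 times were the ligands that rose without the filter (3 against 1), the adaptors that fell under median-ratio scaling (5 against 8), and the scaffolds and brakes that rose under median-ratio scaling or quantile normalization (2 against 1). Leaving out 1 library gave 1 to 3 adaptors that rose and 2 to 5 kinases that rose; a group left with 1 library was assumed to vary like the others. The causes were not tested. The depth in reads is unknown, so its limit could not be compared between genes.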

Other observations

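The table held 17 other genes with a DUSP symbol. This set was chosen after its values were seen. Of the 12 tested, 3 fell (DUSP1, DUSP7 and DUSP10, described above), 2 rose and 7 did not pass (limma), with a median log2 difference of -0.06. Across all tested genes, 31.9% were called lower and 18% higher, with a median of -0.18. DUSP13, a phosphatase of skeletal muscle and testis, rose from 0.850 ± 0.108 to 12.9 ± 2.63 FPKM (SD, n = 4, log2 2.89 ± 0.175 SE, limma adjusted p = 0.000108). DUSP19 was at 2.43 ± 0.765 FPKM before and 6.24 ± 1.62 after (log2 1.08, limma adjusted p = 0.00698). DUSP26 did not reach a mean of 1 FPKM and was not tested, with 0.320 FPKM in 1 undifferentiated library, a listed 0 in the other 3, and 1.40 to 1.65 FPKM after differentiation.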
